A study of Mus musculus with 20 samples.

Results

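*Id2*, *Id3*, *Tcf3* and *Tcf12* encode the main inhibitors of DNA binding (Id proteins) and E proteins of peripheral T cells. They were taken by name as 4 of the 13798 genes in the expression matrix. E proteins are basic helix-loop-helix transcription factors that pair with each other and bind the E-box motif. *Tcf3* encodes E2A and *Tcf12* encodes HEB, the E proteins best known in T cell development. Id2 and Id3 have the helix-loop-helix but no DNA-binding region, so that a dimer of an Id and an E protein cannot bind DNA. In CD4+ T cells Id2 and Id3 are known for restraining the follicular helper programme, which E proteins and the related factor Ascl2 favour in part through *Cxcr5*, and for maintaining regulatory T cells.

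The cells were splenic CD4+CXCR5+PD1+ follicular T cells from C57BL/6 bone marrow chimeras, sorted by surface proteins. They were captured as 1 10x 5′ gene expression library and 1 T cell receptor (TCR) library per mouse. In 5 WT chimeras, irradiated recipients were rebuilt with congenic bone marrow and were given NP-OVA, a hapten on ovalbumin, in alum at week 6. In 5 mixed 564Igi chimeras the marrow was a mix with marrow from 564Igi mice, which carry knock-in heavy and light chains of an autoreactive B cell receptor, and no immunogen was given. All 10 mice were sacrificed at week 10 according to the labels, whereas the study's methods also describe a booster for immunized mice. Recipients were 8 to 10 weeks old when irradiated and marrow donors 6 to 8 weeks old, from the study's methods. Foreign immunization and autoimmunity therefore cannot be told apart from other differences between the conditions. The sort kept CD45.2+CD45.1- cells by the study's methods, and the labels do not say which marrow carried which CD45 form. The labels gave 2 female and 3 male WT mice and 3 female and 2 male 564Igi mice, and the marrow donors' sex is not in them.

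The matrix held 28192 cells, 14965 from WT and 13227 from 564Igi mice, with 1121 to 4030 cells per mouse. The authors had placed each cell in 1 of 6 clusters, which were 11953 activated T follicular helper (Tfh), 11650 T follicular regulatory (Tfr), 2803 *Sostdc1* Tfh, 725 central memory, 682 effector and 379 interferon stimulated cells. Markers fitted 5 of those names, with *Foxp3* in 56% of Tfr cells, *Sostdc1* in every cell of its cluster, *Sox4* in 66.9% of central memory, *Gzmk* in 83.1% of effector and *Isg15* in 97.6% of interferon stimulated cells. The markers of activated Tfh did not single that cluster out, since *Tnfsf8* was found in 63.5% of its cells and 77.0% of *Sostdc1* cells, and *S100a6* in 76.3% and 74.7%. *Foxp3* was, however, also found in 26.3% of interferon stimulated cells. Raw depth per cell, as the median of each mouse, was 2937.5 to 3823.5 unique molecular identifiers (UMIs) in WT and 2728 to 4375.5 in 564Igi mice (exact permutation test, two-sided p = 0.857). Summed markers of other cell types overlapped between conditions, at 0.215 to 0.321 per 10000 counts in WT and 0.190 to 0.332 in 564Igi mice for 5 B cell genes. For 6 CD8, NK and innate lymphoid genes they were at 0.392 to 0.663 and 0.327 to 0.611, and at 0.0212 to 0.484 and 0.0168 to 0.281 for 4 myeloid and erythroid genes. Cell barcodes occurred in more than 1 library for 988 cells (491 barcodes).

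Values are levels, the mean over a mouse's cells of log2(corrected count + 1), unless called a share of cells or a difference. A transcript counted as detected in a cell with at least 1 corrected UMI. Since a UMI can be missed, a cell without one may still have held the transcript. The authors normalized WT and 564Igi cells in separate runs, so a level set across conditions rests on runs fitted apart. Free RNA was not removed, and the sort held no cell type known to lack these genes that could serve as a background. *Id3* was detected in 43.9% of all cells, *Id2* in 24.5%, *Tcf3* in 22.0% and *Tcf12* in 16.3%. Most detections of the E protein genes were single UMIs, with 2 or more in 2.40% of cells for *Tcf3* and 1.54% for *Tcf12*. In 17.4% of cells *Id3* reached 3 or more UMIs, and *Id2* did so in 4.30%. The Id family member *Id1* had a UMI in 0.165% of the cells from WT and 0.266% of those from 564Igi mice, too few for a test.

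In the mouse genome (GRCm38, GENCODE vM21) *Id3* (ENSMUSG00000007872.3) lies on the plus strand at chr4:136143497-136145755 and *Id2* (ENSMUSG00000020644.9) on the minus strand at chr12:25093799-25097140. *Tcf3* (ENSMUSG00000020167.14) lies on the minus strand at chr10:80409514-80433647 and *Tcf12* (ENSMUSG00000032228.16) on the minus strand at chr9:71842688-72111871. Since E proteins bind E-boxes, the promoter windows of the 4 genes (RefSeq, GRCm38.p6, 250 bases before to 50 after an annotated start) were searched for CANNTG, a motif that matches the same places on both strands. The window of *Id3* (chr4:136143572-136143871) held none, and 72.3% of 32851 promoter windows held at least 1. That window lies wholly inside the GENCODE gene, so the sequence before the GENCODE start was not searched. The sites found are printed with 10 bases on each side, 5′ to 3′ on the strand of the gene, with the E-box in capitals. They are shown because they place the motif that E proteins bind within the searched windows of the other 3 genes.
*Id2*, chr12:25096273-25096298, minus strand: tttgccacccCAGCTGggctctcgcc
*Tcf3*, chr10:80433674-80433699, minus strand: tgggcgtggtCACTTGggggcgtggc
*Tcf12*, chr9:72112044-72112069, minus strand: agatgctgccCAGCTGcgtccccgtc
*Tcf12*, chr9:72111335-72111360, minus strand: cagggcggccCAAGTGggaggtggag
*Tcf12*, chr9:72111168-72111193, minus strand: gcgagtgagtCACTTGgtctccgggt
*Tcf12*, chr9:71896086-71896111, minus strand: tgagtagttcCATGTGtgaatgcata
The *Id2* box began 196 bases before the RefSeq start, inside the longer GENCODE gene, and the first *Tcf12* box 240 bases before its start. Both were CAGCTG, a form present in 16.3% of promoter windows. Letters alone do not show that any factor was bound.

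The 4 genes were distributed differently over the 6 clusters, which is a description, since clustering used the genes of these very cells. *Id3* was highest in central memory cells, at 1.60 ± 0.26 (SD, n = 8 mice with at least 20 such cells), where it was detected in a mean of 83.0% of WT and 71.4% of 564Igi cells. Activated Tfh (0.78 ± 0.24), *Sostdc1* Tfh (0.72 ± 0.26), Tfr (0.66 ± 0.17, n = 10 each) and interferon stimulated cells (0.62 ± 0.16, n = 8) followed, and effector cells were lowest at 0.28 ± 0.14 (n = 10). The step down from central memory and the step down to effector cells were seen in 8 of 8 mice each. The neighbours between them differed by less than the spread over mice. *Id3* was higher in activated Tfh than in *Sostdc1* cells in 8 of 10 mice, and higher in *Sostdc1* than in Tfr cells in 7 of 10.

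*Id2* had another order. It was highest in effector cells, at 0.74 ± 0.25 (n = 10), above activated Tfh (0.41 ± 0.12) in 9 of 10 mice. *Sostdc1* Tfh (0.36 ± 0.06), interferon stimulated (0.30 ± 0.13), Tfr (0.22 ± 0.05) and central memory cells (0.20 ± 0.07) followed. The last neighbours could not be separated, with Tfr above central memory in 5 of 8 mice. Tfr cells held less *Id2* than activated Tfh in 10 of 10 mice, by a difference of −0.20 ± 0.09. Effector cells thus had the highest *Id2* and the lowest *Id3* of the 6 clusters, and central memory cells the highest *Id3*. Their *Id2* mean was below that of Tfr cells in WT mice (0.16 against 0.20) and above it in 564Igi mice (0.27, n = 3, against 0.23, n = 5).

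Both E protein genes were highest in central memory cells. *Tcf3* was at 0.65 ± 0.09 there (n = 8), and the highest value elsewhere in any mouse was 0.39, so central memory did not overlap with any other cluster. Its levels in effector (0.26 ± 0.06), activated (0.23 ± 0.04), Tfr (0.22 ± 0.05) and *Sostdc1* cells (0.22 ± 0.06) lay within the spread over mice, although within a mouse effector cells were above Tfr cells in 9 of 10 and above activated Tfh in 8 of 10. Interferon stimulated cells were at 0.13 ± 0.07. *Tcf12* was at 0.29 ± 0.09 in central memory cells and between 0.16 and 0.20 in the other 5 clusters, with central memory above effector cells in 8 of 8 mice but with overlapping ranges. Over the 56 combinations of a mouse and a cluster, which share libraries and clusters, the level of *Id3* had a Pearson r of 0.69 with *Tcf3*, 0.51 with *Tcf12* and −0.55 with *Id2*.

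**Figure D1:**
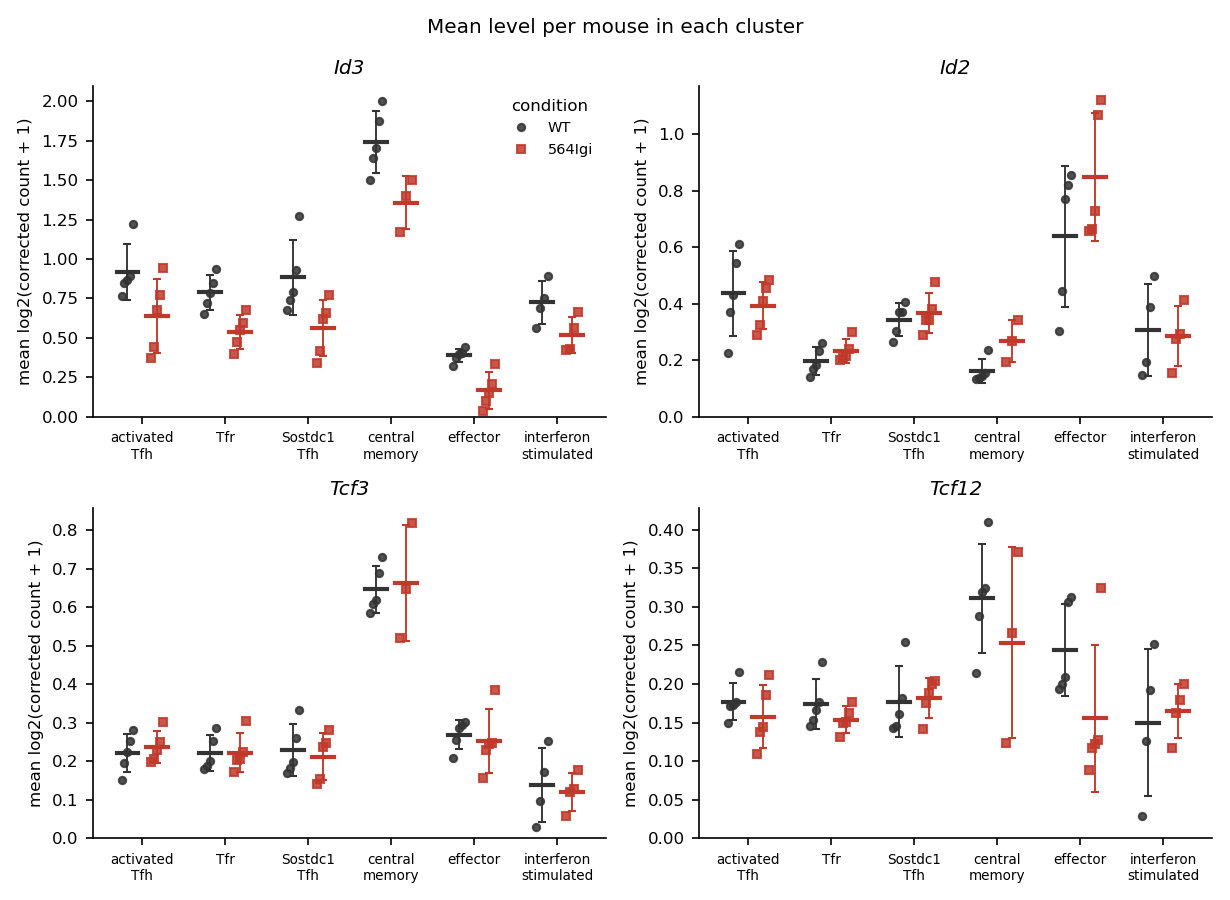
Mean level per mouse, in log2(corrected count + 1), of *Id3*, *Id2*, *Tcf3* and *Tcf12* in the 6 clusters, for mice with at least 20 cells of the cluster. Circles are WT and squares 564Igi mice, and bars are the mean and SD over mice; *Id3* and *Tcf3* peak in central memory cells at a mean over mice of 1.60 and 0.65, and *Id2* in effector cells at 0.74.

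By the same measure, the genes most like each member over those 56 points were *Tmsb10* (r = 0.87), *Lef1* (0.86) and *Mpp1* (0.86) for *Id3*, of which *Lef1* encodes a transcription factor of naive and memory T cells. For *Id2* they were the cytokine gene *Ifng* (0.82), the chemokine gene *Ccl5* (0.81) and *Gnptg* (0.79). *Tcf3* was most like *Txk* (0.91), *Sox4* (0.90) and *Stmn1* (0.90), and *Tcf12* most like *Selenoi* (0.76), *Itch* (0.75) and *Celf2* (0.75). *Sox4*, a marker of the central memory cluster, and *Ccl5*, a marker of the effector cluster, take part in how these cells were clustered.

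Whether the autoimmune condition changed the balance of Id and E proteins was asked by comparing mice. *Id3* had the lower mean in 564Igi mice in each of the 6 clusters, while *Id2*, *Tcf3* and *Tcf12* had no shared direction. None of the 4 genes passed the limits of an adjusted p below 0.01 and a log2 difference beyond 0.2 (limma across all genes, Benjamini-Hochberg) in any cell set. Of all genes tested, 0.01% passed among all cells, 0.0101% in activated, 0.02% in Tfr, 0.0202% in *Sostdc1*, 0% in central memory, 0.0104% in effector and 0.0106% in interferon stimulated cells. These limits are the ones the authors drew for their own test over cells, which is replaced here by a test over mice. *Id3* had the most negative log2 difference of the 9994 genes tested in Tfr cells and of the 9885 tested in *Sostdc1* cells, and the second most negative in activated and central memory cells. These ranks rest on size and not on spread.

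Over all cells, *Id3* was at 0.91, 1.07, 0.72, 0.87 and 0.79 in WT mice 11, 12, 14, 23 and 36, and at 0.42, 0.78, 0.64, 0.41 and 0.68 in 564Igi mice 13, 17, 21, 24 and 34. The conditions overlapped only through 564Igi mouse 17, which lay above the lowest WT mouse. The difference of −0.29 (SE 0.07, 95% confidence interval −0.43 to −0.15) did not pass (limma adjusted p = 0.203, exact permutation test p = 0.0159). *Id3* was detected in 49.8% ± 5.87 of cells in WT and 36% ± 8.49 in 564Igi mice (SD, n = 5 each, exact p = 0.0238).

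In Tfr cells, *Id3* was at 0.85, 0.94, 0.65, 0.79 and 0.72 in WT mice 11, 12, 14, 23 and 36, and at 0.40, 0.55, 0.68, 0.47 and 0.59 in 564Igi mice 13, 17, 21, 24 and 34. All WT mice were above 564Igi mice 13, 17, 24 and 34, while mouse 21 lay just above the lowest WT mouse. The difference was −0.25 (SE 0.05, 95% confidence interval −0.36 to −0.14, limma adjusted p = 0.0757, exact permutation test p = 0.0159). The share of Tfr cells with *Id3* was 46.4% ± 4.66 in WT and 33.9% ± 5.18 in 564Igi mice (SD, n = 5 each), and the conditions did not overlap (exact p = 0.00794, the smallest that 5 against 5 mice allow). In Tfr cells 0.34% of all genes tested had shares in which every 564Igi mouse lay below every WT mouse. Over 8 alternative fits the adjusted p (limma) ranged from 0.00729, with labelled sex as a covariate (−0.27), to 1.0. With 1 mouse left out it ranged from 0.0088, without WT mouse 14, to 0.293.

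In effector cells *Id3* was low in both conditions and lower in 564Igi mice. WT mice lay between 0.32 and 0.44, and 564Igi mice were at 0.15, 0.21, 0.04, 0.10 and 0.34 (mice 13, 17, 21, 24 and 34), of which only mouse 34 reached the WT range. The share of cells with *Id3* was 24.7% ± 3.34 in WT and 11.2% ± 6.74 in 564Igi mice and did not overlap (exact p = 0.00794). The same held for 0.726% of genes tested in effector cells. The level difference was −0.22 (SE 0.05, limma adjusted p = 0.0490, exact p = 0.0159), which missed the adjusted limit of 0.01. At the same time 0.0519% of genes were lower in 564Igi effector cells at an adjusted p below 0.05. With 1 mouse left out the adjusted p (limma) ranged from 0.00302, without 564Igi mouse 34, to 0.369. Over 9 other alternatives it ranged from 0.00288 to 0.451. There were 23 to 77 effector cells per WT mouse and 35 to 173 per 564Igi mouse, and 564Igi mouse 21, with the most, had *Id3* in 2.89% of them.

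*Id3* in activated Tfh was at 0.89, 1.22, 0.77, 0.87 and 0.85 in WT mice 11, 12, 14, 23 and 36, and at 0.44, 0.94, 0.68, 0.37 and 0.77 in 564Igi mice 13, 17, 21, 24 and 34. The conditions overlapped, with 3 of 5 564Igi mice below all WT mice. The difference of −0.28 (SE 0.09) did not pass (limma adjusted p = 0.956, exact p = 0.0794). *Sostdc1* Tfh gave −0.32 (SE 0.09, limma adjusted p = 0.582, exact p = 0.0317), with 4 of 5 564Igi mice below all WT mice and shares of 49.7% ± 10.3 against 34.7% ± 10.8. Central memory cells gave −0.39 (SE 0.14, 5 WT and 3 564Igi mice, limma adjusted p = 0.554, exact p = 0.0714) and interferon stimulated cells −0.20 (SE 0.08, 4 mice each, limma adjusted p = 0.998, exact p = 0.0857). A mean of logs over many cells without the transcript gives small differences. On the log2 of the summed counts per 10000 they were larger in size, at −0.56 (SE 0.13) for *Id3* in all cells, −0.51 (SE 0.11) in Tfr and −0.67 (SE 0.14) in effector cells, with adjusted p of 0.343, 0.112 and 0.0353 (limma).

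The *Id3* difference between conditions was not shown to differ between Tfr and activated Tfh. The difference in *Id3* between those clusters, taken within each mouse, moved by 0.03 between conditions (95% confidence interval −0.12 to 0.17, limma adjusted p = 0.964, exact p = 0.778), and for *Id2* by 0.08 (−0.01 to 0.17, adjusted p = 0.710, exact p = 0.190). A difference of up to 0.17 on this scale lies within the interval for *Id3*. No gene passed in this comparison (0% of 9582, with 737 at an unadjusted limma p below 0.05). When the 6 cluster means of a mouse were weighted by fixed shares, *Id3* still differed by −0.27 (SE 0.07) between conditions, close to the −0.29 over all cells.

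*Id2* over all cells was at 0.20 to 0.41 in WT and at 0.27 to 0.41 in 564Igi mice, a difference of 0.03 (SE 0.04, limma adjusted p = 1.0, exact p = 0.611). The effector cells had the largest *Id2* difference, 0.64 ± 0.25 in WT and 0.85 ± 0.23 in 564Igi mice (limma adjusted p = 0.945, exact p = 0.190). That difference of 0.21 ranged from 0.13, without WT mouse 36, to 0.26, without WT mouse 11. In central memory cells *Id2* was at 0.15, 0.14, 0.14, 0.24 and 0.13 in WT mice and at 0.34, 0.19 and 0.27 in the 3 564Igi mice with enough cells, and WT mouse 23 lay among the latter (difference 0.11, limma adjusted p = 0.616, exact p = 0.0714). *Tcf3* differed by 0.02 or less in every cluster, with exact p between 0.548 and 0.976. *Tcf12* in effector cells was at 0.31, 0.20, 0.19, 0.31 and 0.21 in WT mice and at 0.12, 0.12, 0.13, 0.09 and 0.32 in 564Igi mice, so that mouse 34 lay above all WT mice and the other 564Igi mice below them (difference −0.09, exact p = 0.143; share of cells 22.4% against 13.5%, exact p = 0.0397). The Id and E protein list, in which 4 of 6 genes were tested, thus had 0 called (1, *Id3*, at an unadjusted limma p below 0.05), 1 above and 3 below 0 over all cells.

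The relation of *Id3* to *Id2* was then read in single cells. Each cell was placed in 1 of 4 states, with *Id3* only, *Id2* only, both or neither detected. In Tfr cells, 39.6% ± 4.21 of WT and 28.1% ± 4.28 of 564Igi cells had *Id3* only (SD, n = 5 each), and the conditions did not overlap (exact p = 0.00794, Benjamini-Hochberg adjusted over 12 state tests 0.0952). *Id2* only was found in 9.57% ± 1.98 and 13% ± 2.97 (exact p = 0.0635), both in 6.81% ± 1.73 and 5.77% ± 1.40, and neither in 44.0% ± 5.70 and 53.1% ± 3.55 (exact p = 0.0238, adjusted 0.0952). The 4 shares of a mouse add up to the whole, so they are not separate observations. The shares with *Id3* only and with both add up to the share with *Id3* given above. The *Id3*-only difference is therefore not separate from that result.

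Activated Tfh had *Id3* only in 36.9% ± 5.55 of WT and 29.7% ± 10.6 of 564Igi cells, both in 15.7% ± 5.94 and 9.28% ± 1.40, *Id2* only in 14.9% ± 5.25 and 19.1% ± 6.27, and neither in 32.6% ± 8.93 and 41.9% ± 5.88. These conditions overlapped in each state, with exact p from 0.0714 to 0.262. In *Sostdc1* Tfh the share with *Id2* only was 12.5% ± 2.71 in WT and 19.4% ± 4.87 in 564Igi mice (exact p = 0.0238, adjusted 0.0952). None of the 12 state tests passed an adjusted p of 0.05. In effector cells, which were not among those tests, cells with *Id3* only made up 18.6% in WT and 5.70% in 564Igi mice and those with *Id2* only 33.8% and 48.3%, while in central memory cells 72.6% and 58.5% had *Id3* only.

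**Figure D2:**
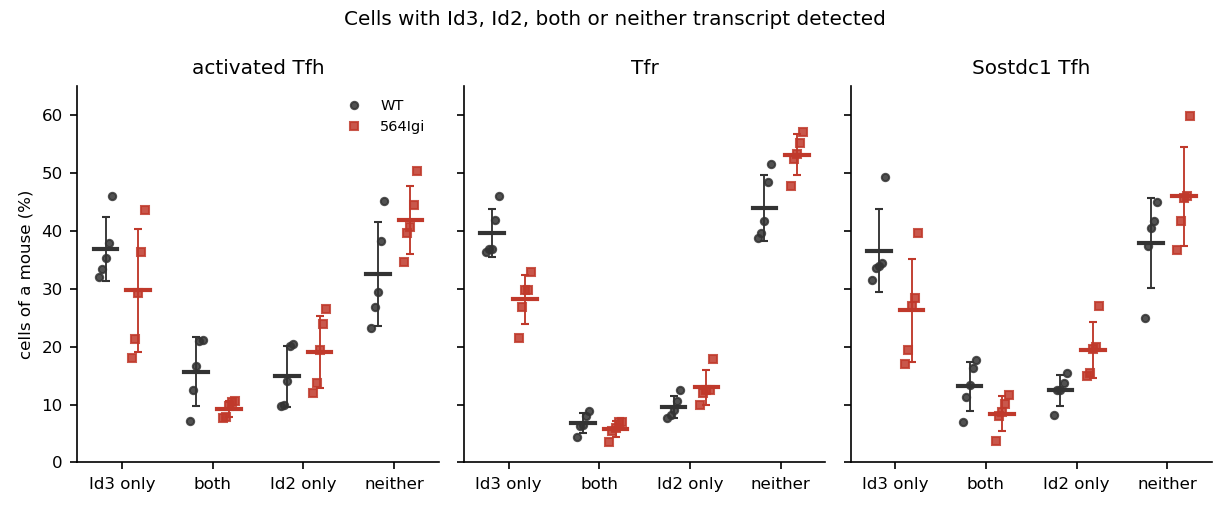
Share of each mouse's activated Tfh, Tfr and *Sostdc1* Tfh cells (%) with *Id3* only, both, *Id2* only or neither transcript detected; circles are WT and squares 564Igi mice, with the mean and SD over 5 mice. In Tfr cells the *Id3*-only shares are separate, at 39.6% in WT and 28.1% in 564Igi mice on average.

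Cells with both transcripts were slightly fewer than independent detection would give. In activated Tfh 12.7% of cells had both, against 13.7% if detection of each were independent, in Tfr 6.56% against 7.23%, and in *Sostdc1* Tfh 10.5% against 11%. The log2 odds ratio of joint detection, in which a value below 0 means fewer joint cells, averaged −0.29 ± 0.25 over mice in activated Tfh and was below 0 in 9 of 10 mice. It was −0.30 ± 0.33 in Tfr cells (below 0 in 8 of 10) and −0.15 ± 0.48 in *Sostdc1* Tfh (below 0 in 6 of 10). Cells with both transcripts had a higher median depth than cells with *Id3* only, 3800 against 3514 UMIs in activated Tfh (medians over mice). Within 3 classes of raw UMIs the odds ratio was −0.31 in activated Tfh and −0.32 in Tfr cells. The relation was weak in these sparse counts, with Spearman coefficients averaging −0.05 in activated Tfh and −0.04 in Tfr cells.

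The odds ratio per mouse in activated Tfh was −0.19, 0.11, −0.22, −0.48 and −0.06 in WT mice 11, 12, 14, 23 and 36 and −0.69, −0.63, −0.38, −0.14 and −0.27 in 564Igi mice 13, 17, 21, 24 and 34. The conditions overlapped, and their difference of −0.26 did not pass (exact permutation p = 0.119, adjusted over 3 clusters 0.226). Tfr cells gave a difference of 0.11 (exact p = 0.603) and *Sostdc1* Tfh one of −0.46 (exact p = 0.151, adjusted 0.226). With a detection limit of 2 UMIs the latter was −1.39 (exact p = 0.0159, adjusted 0.0476) and that of activated Tfh −0.13, and over all 4 alternatives they ranged from −1.39 to −0.37 and from −0.28 to −0.13. The value at 2 UMIs in *Sostdc1* cells rests on the few cells with 2 or more UMIs of both genes. Effector cells, given as a description, averaged −1.29 in WT and −0.19 in 564Igi mice, with 36 joint cells among 682.

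**Figure D3:**
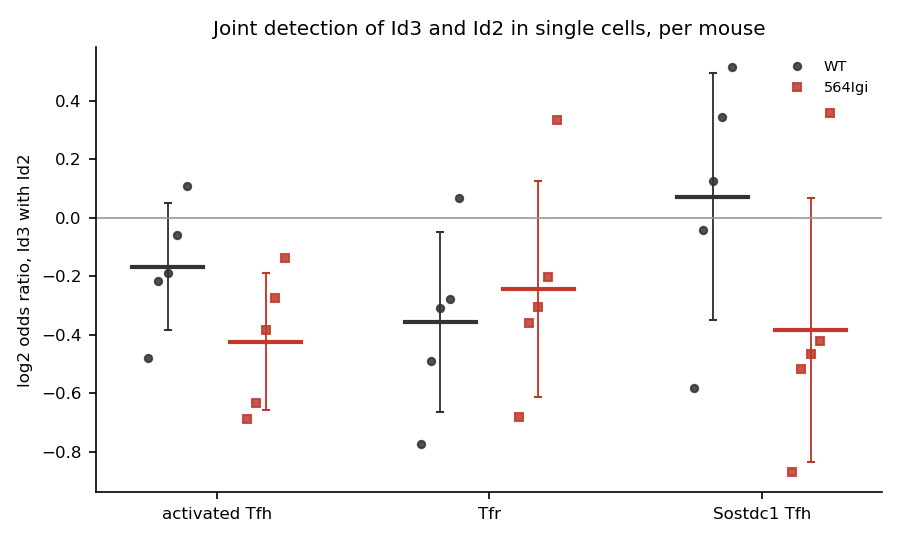
Log2 odds ratio of detecting *Id3* and *Id2* in the same cell, 1 point per mouse, in activated Tfh, Tfr and *Sostdc1* Tfh, with 0 marking independent detection. Circles are WT and squares 564Igi mice with mean and SD over 5 mice; 9 of 10 mice lie below 0 in activated Tfh and 8 of 10 in Tfr cells.

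In the pairs given here, the E protein genes were not tied to the Id genes in the same way. The values given for these pairs are from cells not split into classes of raw UMIs, so differences in depth between cells remain in them. In Tfr cells the log2 odds ratio of *Id2* with *Tcf3* averaged 0.22 ± 0.24 (above 0 in 9 of 10 mice) and that of *Id3* with *Tcf12* 0.27 ± 0.25 (9 of 10), whereas *Id3* with *Tcf3* averaged −0.03 ± 0.08. In activated Tfh the same pairs averaged 0.05 ± 0.32, 0.00 ± 0.24 and −0.07 ± 0.25. None of these Id and E protein pairs thus had 1 direction in both clusters beyond the spread over mice. The pair of *Id2* with *Tcf12* is not given here. *Tcf3* and *Tcf12* were detected together with an odds ratio of 0.25 ± 0.25 over all cells (above 0 in 8 of 10 mice), with the clusters pooled. Both genes were detected most often in central memory cells, *Tcf3* in 53.0% and *Tcf12* in 29.5%, against 22.0% and 16.3% of all cells. Pooling clusters that differ in both genes can itself raise an odds ratio, so this value does not show a tie within a cluster.

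Cells with *Id3* only and cells with *Id2* only differed in other genes, which is given as a description over cells of the same mice. *Tcf7*, which encodes TCF-1, a factor of follicular helper and memory T cells, was higher in *Id3*-only cells by 0.42 ± 0.20 in activated Tfh (9 of 10 mice), by 0.35 ± 0.08 in Tfr (10 of 10) and by 0.35 in *Sostdc1* Tfh (9 of 10). *Cxcr5*, the follicle homing receptor, was higher by 0.26 ± 0.07 in activated Tfh (10 of 10 mice; found in 49.5% against 34.7% of cells) and by 0.14 ± 0.12 in Tfr cells (9 of 10). *Pdcd1*, which encodes PD-1, was higher by 0.16 ± 0.13 and 0.14 ± 0.10 in these clusters (9 of 10 mice each). Both of these genes encode surface proteins on which the cells had been sorted.

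Other genes were higher in *Id2*-only cells. *Il7r*, the interleukin 7 receptor, differed by −0.13 ± 0.09 in Tfr cells (higher in *Id2*-only cells in 10 of 10 mice) and by −0.08 ± 0.08 in activated Tfh (9 of 10). *Prdm1*, which encodes Blimp-1, an antagonist of Bcl6 found in effector and regulatory cells, was found in 10.4% of *Id2*-only and 3.64% of *Id3*-only Tfr cells. Its level was higher in *Id2*-only activated Tfh of 10 of 10 mice although only in 3.62% of cells. *Foxp3*, the regulatory T cell factor, differed by −0.16 ± 0.09 in Tfr cells (lower in *Id3*-only cells in 9 of 10 mice). Outside the Tfr cluster *Foxp3* went the other way. It was higher in *Id3*-only cells by 0.03 ± 0.03 in activated Tfh (9 of 10 mice) and by 0.05 ± 0.05 in *Sostdc1* Tfh (8 of 10). *Bcl6* differed by 0.05 ± 0.04 in Tfr and by 0.02 ± 0.03 in activated Tfh. *Tcf3* and *Tcf12* differed by 0.04 or less in size in both clusters. The *Id3*-only and *Id2*-only cells had similar depth, with medians over mice of 3514 and 3670 UMIs in activated Tfh and 3562 and 3720 in Tfr cells, so that the *Id2*-only cells were the deeper.

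**Figure D4:**
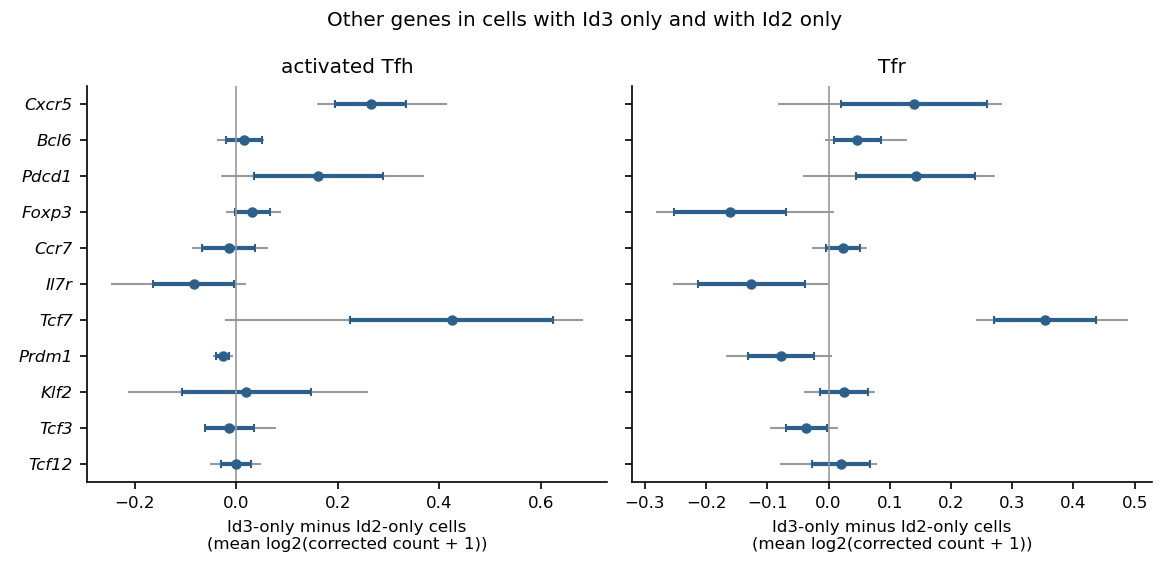
Difference in mean log2(corrected count + 1) between cells with *Id3* only and cells with *Id2* only for 11 genes in activated Tfh (left) and Tfr cells (right). Points are means over 10 mice, thick bars the SD and thin lines the range; *Tcf7* and *Cxcr5* lie to the right of 0 in both panels, and *Foxp3* lies to the left in Tfr cells.

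Within the Tfr cluster, *Id3* was at 0.57 in cells with *Foxp3* detected and at 0.78 in cells without, lower in 10 of 10 mice (difference −0.20 ± 0.06). *Id2* was at 0.20 and 0.24 in the same cells (difference −0.04 ± 0.03, lower in 8 of 10 mice), and *Tcf12* differed by −0.01 ± 0.04. Expanded Tfr cells, described next, also had less *Foxp3* (−0.08, SE 0.02, limma adjusted p = 0.0270, lower in 8 of 10 mice).

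Whether clonal expansion moved with these genes was asked from the TCR libraries, which the choice of genes did not use. A paired TCR was listed for 21405 of the cells with RNA (75.9%). Cells of a mouse whose α and β CDR3 protein sequences were both identical formed a clonotype, which was called expanded from 2 cells. *Id3* was lower in expanded than in singleton Tfr cells in 10 of 10 mice, at 0.62 against 0.77 (37.8% against 46.3% of cells). The per-mouse differences were −0.03, −0.19, −0.18, −0.18 and −0.20 in WT mice 11, 12, 14, 23 and 36 and −0.16, −0.14, −0.17, −0.11 and −0.10 in 564Igi mice 13, 17, 21, 24 and 34. The mean difference of −0.15 (SE 0.02) passed (limma adjusted p = 1.85e-07 across all genes, exact sign flip permutation p = 0.00195, the smallest that 10 mice allow), where 3.07% of genes passed an adjusted p of 0.05 and 2.13% did so as lower. It was −0.11 with each clonotype counted as 1 value (limma adjusted p = 4.58e-04).

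In activated Tfh *Id3* was at 0.76 in expanded and 0.87 in singleton cells, lower in 9 of 10 mice, and the difference of −0.11 (SE 0.02) passed (limma adjusted p = 0.00405, exact sign flip permutation p = 0.0137) where 7.55% of genes did and 5.63% as lower. That call ended when each clonotype was counted as 1 value (−0.04, limma adjusted p = 0.417). In *Sostdc1* Tfh, where 7 mice had 20 cells of each kind, the difference was −0.05 (SE 0.05, limma adjusted p = 0.882). Expanded cells had fewer UMIs than singleton cells in 9 of 10 mice in both activated Tfh and Tfr. With expanded cells weighted to the 3 depth classes of the singleton cells the differences were −0.12 and −0.15 (limma adjusted p = 5.47e-04 and 2.61e-07). Of the markers of other cell types, *Cd79b* was lower in expanded activated Tfh (−0.01, limma adjusted p = 0.0149) and *Klrb1c* in expanded Tfr cells (−0.02, adjusted p = 0.0281), and their part in the *Id3* difference was not tested.

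**Figure D5:**
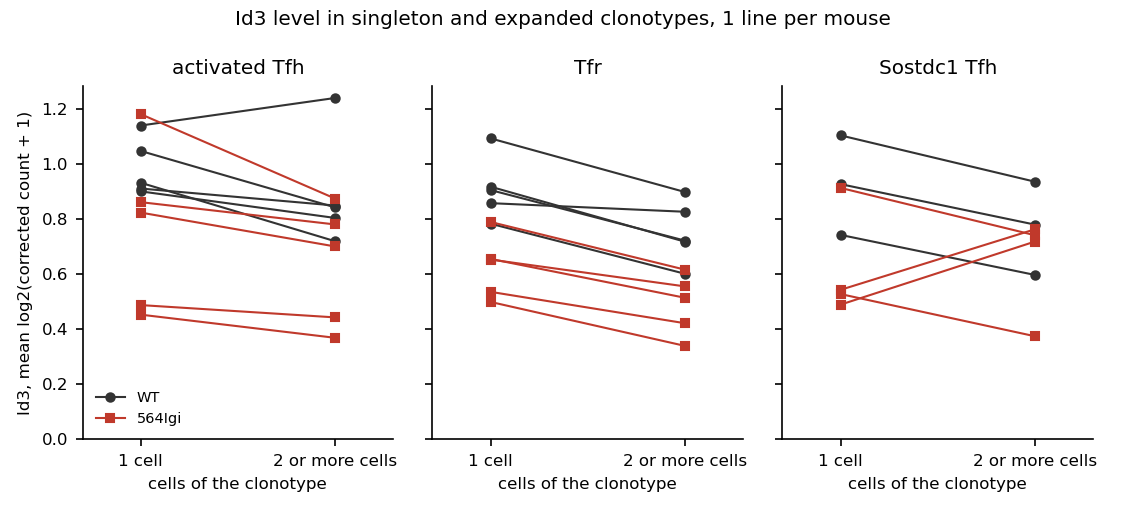
*Id3* level, as mean log2(corrected count + 1), in cells of singleton clonotypes and of clonotypes with 2 or more cells, 1 line per mouse (circles WT, squares 564Igi) for activated Tfh, Tfr and *Sostdc1* Tfh. All 10 lines fall in Tfr cells and 9 of 10 in activated Tfh, while 5 of the 7 lines fall in *Sostdc1* Tfh.

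The 3 other genes did not pass in these comparisons. *Tcf12* was lower in expanded cells of 9 of 10 mice in activated Tfh (−0.03, SE 0.01, limma adjusted p = 0.0682, exact sign flip permutation p = 0.00977) and in Tfr (−0.03, SE 0.01, adjusted p = 0.101, exact p = 0.0215). *Id2* differed by 0.02 in activated Tfh, −0.01 in Tfr and 0.09 in *Sostdc1* cells (SE 0.05, limma adjusted p = 0.760), and *Tcf3* by −0.02 and −0.01. Between conditions the *Id3* difference in Tfr cells was −0.16 in WT and −0.14 in 564Igi mice (exact p = 0.595). None of the 12 comparisons of a gene and a cluster passed between conditions (exact permutation p from 0.114 to 0.921). The difference farthest from 0 was that of *Id2* in *Sostdc1* Tfh, at 0.25 ± 0.22 in 3 WT and −0.04 ± 0.11 in 4 564Igi mice (−0.29, 95% confidence interval −0.44 to −0.13, limma adjusted p = 0.671, exact permutation p = 0.114). Few singleton cells carried the WT mean, with *Id2* in 4% of 25 in mouse 11 and in 7.32% of 41 in mouse 23. The differences were 0.38 and 0.37 in these mice and −0.0036 in WT mouse 36. Across all genes, 0%, 0.0417% and 0% of expanded minus singleton differences passed an adjusted p of 0.05 (limma) between conditions in activated Tfh, Tfr and *Sostdc1* cells. At an unadjusted limma p below 0.05 were 612, 633 and 567 genes.

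Partners and upstream inputs of the 4 genes were read as lists. Of 14 other helix-loop-helix factors and E protein corepressors, 10 were tested over all cells and 0 were called between conditions, with 6 above and 4 below 0 (median 0.00074, against −0.00184 for all genes). Their most different genes were *Ascl2*, at 0.18 in WT and 0.28 in 564Igi mice (difference 0.11, SE 0.03, limma adjusted p = 0.613), *Bhlhe40*, at 0.25 and 0.32, and *Mxd4*, at 0.59 and 0.54. Of 13 genes for the growth factor and receptor inputs known to act on Id genes, 10 were tested and 0 called (2 above and 8 below 0, median −0.00420), with *Tgfbr1* at 0.13 and 0.11, *Tgfb1* at 0.48 and 0.46 and *Egr2* at 0.22 and 0.23 the most different. Of 12 genes known as bound or regulated by E proteins in T cells, 9 were in the matrix and tested and 0 called (4 above and 5 below 0, median −0.00074), the most different being *Il7r* (0.29 and 0.21), *Socs3* (0.08 and 0.14) and *Cd4* (0.99 and 1.03). At an unadjusted limma p below 0.05 stood 1 of the 10 helix-loop-helix genes, 0 of the 10 input genes and 2 of the 9 E protein target genes.

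Between expanded and singleton cells some of these list genes passed an adjusted p of 0.05 (limma), as 7.55% of all genes did in activated Tfh and 3.07% in Tfr cells. In activated Tfh, 1 of the 9 E protein target genes was higher in expanded cells, *Cxcr5* (0.10, SE 0.02, adjusted p = 0.00454), and 4 were lower, *Il7r* (−0.09), *Dtx1* (−0.07), *Foxp1* (−0.06) and *Foxo1* (−0.05). Of 9 other helix-loop-helix genes tested there, *Ascl2* (0.09, adjusted p = 6.84e-05), *Bhlhe40* (0.06) and *Cbfa2t3* (0.02) were higher and *Myc* lower (−0.02). In Tfr cells *Il7r* (−0.07, adjusted p = 5.19e-04) and *Foxp1* (−0.06, adjusted p = 0.0432) were lower and no helix-loop-helix gene passed, as none of the 10 input genes did in either cluster. *Ascl2* in Tfr cells differed by −0.02 (adjusted p = 0.299). Of the 21 follicular and regulatory genes, 9 were higher and 5 lower in expanded activated Tfh, and 4 higher and 5 lower in expanded Tfr cells, with *Pdcd1* at 0.31 and 0.20. With each clonotype as 1 value, 182 in place of 716 genes passed in activated Tfh and 145 in place of 295 in Tfr cells. Of the list genes called in activated Tfh, *Cxcr5*, *Dtx1* and *Il7r* among 5 E protein targets, *Ascl2* among 4 helix-loop-helix genes and 10 of 14 follicular and regulatory genes passed in that setting too. In Tfr cells 1 of 2 targets, *Il7r*, and 4 of 9 follicular and regulatory genes did.

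The other lists gave 0 calls over all cells as well. Of 21 follicular and regulatory T cell genes, 9 lay above and 12 below 0 (median −0.00510), with *Ikzf2* (1.51 in WT and 1.35 in 564Igi mice), *Pdcd1* (1.45 and 1.60) and *Icos* (1.03 and 1.18) the most different. Of 11 cluster markers 6 lay above and 5 below (median 0.04), led by *S100a6* (1.60 and 1.87), *Tnfsf8* (0.67 and 0.88, limma adjusted p = 0.157) and *Sostdc1* (0.54 and 0.62). At an unadjusted limma p below 0.05 were 5 of the 21 follicular and regulatory genes and 5 of the 11 cluster markers, against 318 (3.19%) of all genes tested over all cells. B cell markers were represented by *Cd79b* (0.04 and 0.03) and *Cd22* (0.04 and 0.05), and CD8, NK and innate lymphoid markers by *Eomes* (0.06 and 0.05), *Klrb1c* (0.04 and 0.04) and *Cd8b1* (0.05 and 0.05), while no myeloid or erythroid gene was found in enough cells to be tested.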

How the data were processed

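Cells were sorted, captured and sequenced as 1 RNA and 1 TCR library per mouse. The authors processed reads with Cell Ranger 4.0.0 against GRCm38 (mm10) and Seurat 3.1.4, removed receptor genes, and normalized WT and 564Igi cells separately with sctransform, regressing out mitochondrial and ribosomal content, UMIs and a heat shock score. The deposited expression values are the natural log of the corrected UMI count plus 1, and undoing the log gave whole numbers (within 1e-06) for 100% of values above 0. The cell table holds, as deposited by the authors, raw UMI and gene counts per cell (2001 to 16223 UMIs), the percent of UMIs in mitochondrial genes, the heat shock score and the cluster names. The TCR table lists 33833 cells with 1 α and 1 β chain each. The matrix holds fewer cells than the study states. Corrected counts are not raw counts, so count models were not used. No doublet caller was run.

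The mean of log2(corrected count + 1) over the cells of a mouse was tested with limma 3.58.1 (R 4.3.3, with trend) for mice with at least 20 cells of a cluster. A gene was tested between conditions if the number of mice with a UMI of it in 1% or more of their cells was no smaller than the smaller group. For expanded against singleton cells, such mice had to be no fewer than the other mice used. In differences taken within a mouse, both kinds of cell had to reach 1%. Levels and shares of cells with a transcript were compared by exact permutation over mice (two-sided, unadjusted). These were 28 tests of levels, for the 4 genes in 7 cell sets, and 28 more of shares. The Tfr minus activated difference (1 test per gene) and the expanded minus singleton difference (12 tests) were compared between conditions in the same way. State shares and odds ratios had Benjamini-Hochberg adjustment over 12 and 3 tests. Expanded and singleton cells were compared by exact sign flips (12 tests, unadjusted, in place of a planned adjustment over these alone). Limma's adjusted p across all genes is given beside them. With 5 mice against 3 and 4 against 4 the smallest exact p are 0.0357 and 0.0286. The members and gene lists were chosen with earlier results of these data known. Named genes are the 4 members, the 3 tested genes of each list with the largest difference over all cells, and the 3 genes most correlated with each member; list genes that passed between expanded and singleton cells, and the genes compared between *Id3*-only and *Id2*-only cells, are named as well. Values of 1 list gene are not reported here. Fits were tested on simulated data. Alternatives covered the trend, the filter, the scale, cells per mouse, covariates, clone definitions, detection limits and each mouse left out; the planned one without cells of more than 1 α or β chain removed 0 cells. Python 3.11.15 with numpy 2.4.6, pandas 2.3.3, scipy 1.17.1 and matplotlib 3.10.9 was used. P-values set a difference against the spread between these mice. Depth per mouse was 3424280 to 15241983 UMIs, and intervals over cells were not used.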

Additional observations from a re-analysis of the deposited data

Results flagged for a closer look

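Among 102 groups of 4 or 5 mice tested for 1 value far from the others, 6 (5.88%) had one, close to the 5% that chance gives. *Id3* in activated Tfh was at 1.22 in WT mouse 12, where the other WT mice lay between 0.77 and 0.89, and the same mouse had *Id3* only in 49.2% of its *Sostdc1* Tfh cells, where the others lay between 31.5% and 34.4%. *Id2* in central memory cells was at 0.24 in WT mouse 23, against 0.13 to 0.15 in the other WT mice. *Tcf12* over all cells was at 0.24 in WT mouse 11, against 0.16 to 0.18, and *Tcf12* in effector cells at 0.32 in 564Igi mouse 34, against 0.09 to 0.13. The expanded minus singleton difference of *Id3* in Tfr cells was −0.031 in WT mouse 11, against −0.20 to −0.18 in the other WT mice.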

How the results depend on the processing

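No paired analysis was possible because each mouse was in 1 condition and its number in the labels ties only its RNA and TCR libraries. The *Id3* difference between conditions kept its sign in every cell set under all alternatives run, and its adjusted p (limma) crossed the limit only in Tfr and effector cells, as given with those results; the call of lower *Id3* in expanded Tfr cells held under all of them. In expanded activated Tfh it ended with each clonotype as 1 value, and the causes of this and of the other changes given here were not tested. Of the single differences of the 4 genes between conditions, 226 of the values under other settings were on the same side as reported, 16 changed sign and 2 passed the limit. *Tcf12* in expanded activated Tfh passed an adjusted p of 0.05 (limma) with expansion from 5 cells (−0.03, adjusted p = 0.0380), with clone size over cells with RNA (−0.04, adjusted p = 0.0198) and without 564Igi mouse 21 (adjusted p = 0.0400), and in Tfr cells with expansion from 5 cells (−0.04, adjusted p = 0.0380) and without 564Igi mouse 17 (adjusted p = 0.0361). The depth limits *Tcf3* and *Tcf12* most, since few cells held more than 1 UMI, and the changes of sign concern differences near 0.

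The changes of sign in differences between conditions were as follows. With equal cells per mouse *Tcf3* was at 0.0080 over all cells, 0.040 in effector and 0.014 in interferon stimulated cells; with labelled sex as a covariate it was at 0.0062 and with cluster means at fixed shares at 0.0054 over all cells. With summed counts per 10000 *Tcf3* was at −0.020 in Tfr and −0.0016 in central memory cells and *Id2* at 0.014 in interferon stimulated cells. With median UMIs as a covariate *Tcf3* was at −0.0043 in Tfr, −0.0073 in central memory and 0.0078 in effector cells. Without libraries 34 and 36, whose label numbers stand apart, *Tcf3* was at −0.0025 in Tfr and −0.00042 in central memory cells, and with at least 50 cells per mouse at 0.0042 in effector cells. With at least 10 cells per mouse *Id2* was at 0.062 and *Tcf12* at −0.015 in interferon stimulated cells. In the Tfr minus activated difference *Tcf3* was at 0.018 with *Sostdc1* in place of activated cells and *Tcf12* at 0.0069 with summed counts per 10000. Between expanded and singleton cells, with each clonotype as 1 value, *Id2* was at −0.0092 in activated and 0.023 in Tfr cells and *Tcf3* at 0.0039 in *Sostdc1* cells; with clone size over cells with RNA *Tcf3* was at 0.010 and *Tcf12* at −0.0030 in *Sostdc1* cells, and with expanded cells weighted to the 3 UMI classes of singletons, an alternative chosen after seeing the data, *Tcf3* was at 0.0014.

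The number of genes called over all cells, 1, was 0 without the limma trend (196 at an unadjusted p below 0.05, against 318 with it) and 2 with summed counts per 10000. Between expanded and singleton cells it was 182 in activated Tfh and 145 in Tfr cells with each clonotype as 1 value, 182 in Tfr cells with the UMI weights, 135 with shares of cells, and in *Sostdc1* cells 2 with expansion from 5 cells and 1 each with clone size over cells with RNA and with the UMI weights. The difference between conditions in the *Id3* to *Id2* log2 odds ratio of Tfr cells was −0.060 with counts thinned to 1 total and −0.30 at 2 UMIs, and that of *Sostdc1* cells −1.39 at 2 UMIs and −0.73 with thinned counts, while that of activated Tfh shrank from −0.26 to −0.13 and −0.14 under these.

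With 1 mouse left out in turn, differences between conditions ranged for *Id2* from −0.0020 to 0.051 over all cells, −0.0054 to 0.042 in *Sostdc1* and −0.076 to 0.041 in interferon stimulated cells. For *Tcf3* they ranged from −0.023 to 0.011 over all cells, −0.00062 to 0.031 in activated, −0.020 to 0.018 in Tfr, −0.034 to 0.0093 in *Sostdc1*, −0.064 to 0.086 in central memory, −0.050 to 0.0080 in effector and −0.053 to 0.021 in interferon stimulated cells. For *Tcf12* they ranged from −0.0039 to 0.024 in *Sostdc1*, −0.12 to 0.0073 in central memory and −0.025 to 0.049 in interferon stimulated cells. The Tfr minus activated difference ranged from −0.023 to 0.099 for *Id3* and −0.011 to 0.0072 for *Tcf12*. Expanded minus singleton differences ranged from −0.015 to 0.012 for *Id2* in Tfr cells, and in *Sostdc1* cells from −0.015 to 0.017 for *Tcf3* and −0.0040 to 0.017 for *Tcf12*. The odds ratio difference in Tfr cells ranged from −0.032, without 564Igi mouse 34, to 0.22. Genes called ranged from 1 to 2 over all cells, 152 to 308 in expanded Tfr and 0 to 1 in expanded *Sostdc1* cells. In expanded Tfr cells, where 295 were called with all mice, the count was 152 without WT mouse 23, 170 without WT mouse 36, 171 without WT mouse 12, 172 without 564Igi mouse 21 and 191 without WT mouse 11.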
